A study of Mus musculus with 9 samples.

Results

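The complement genes described here are 39 genes of the complement system, taken as every probe whose gene name on the array matched a fixed list of components, receptors and regulators. They were carried by 51 of the 39429 probes, and 10 of the 39 genes had more than 1 probe. The whole array held 31829 gene names. Choroid (CH), retinal pigment epithelium (RPE) and the photoreceptor layer (PR) were laser dissected from eyes of female C57BL/6 mice (substrain C57BL/6JOlaHsd in the study's methods) labelled as 6 months old, give or take 2 weeks (the study's methods give a slightly lower age), and the labels name no transgene or treatment. There were 3 arrays of each tissue. Each array carried amplified tissue RNA in Cy5 against a common reference of RPE and choroid RNA from the same strain, sex and age in Cy3, with no dye swaps. The reference therefore holds RNA of CH and RPE, and log2 ratios are relative to that mixture. They were normalized within arrays, so 0 marks the bulk of probes of similar intensity on an array.

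Complement is a chain of plasma and tissue proteins that tags surfaces for removal. C1q with its proteases C1r and C1s starts the classical pathway, lectins with MASP proteases start the lectin pathway, and factor D and factor B drive the alternative pathway; all of them converge on C3. Later components assemble a pore in the target membrane, and soluble and membrane-bound regulators keep the chain off the host's own cells. In the eye the system is best known from age-related macular degeneration, in which complement proteins lie in deposits beneath the RPE.

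A gene was called where its tissues differed by more than 2.5-fold with an adjusted p below 0.01 at its brightest probe. CH exceeded PR for 18 of the 39 genes, and the same was true of 12.8% of all genes on the array. RPE exceeded PR for 14 genes, beside 10.9% of all genes. RPE lay below CH for 10 genes, beside 1.75% of all genes. In the other direction each comparison called 1 gene. RPE lay below PR for Vtn (5.21% of all genes), CH lay below PR for Vtn (6.03% of all genes), and RPE exceeded CH for Clu (0.179% of all genes), whose probe was saturated in both tissues. On all arrays CH lay above RPE and RPE above PR for 17 of the 39 genes, a pattern that 9.37% of all genes showed. The 17 include Cd46, which was not well above background on any array. The 3 comparisons share arrays, so the counts do not stand as separate evidence.

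Over the 39 genes the median log2 difference was 0.65 for CH minus PR, beside -0.05 over all genes. It was 0.55 for RPE minus PR and -0.32 for RPE minus CH, beside 0.00 and 0.03 over all genes. With the arrays scaled by their medians the RPE and PR comparison called 13 genes higher and 3 lower in RPE, and with the scanner software's own log ratios the CH and PR comparison called 18 higher and 4 lower in CH.

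**Figure D1:**
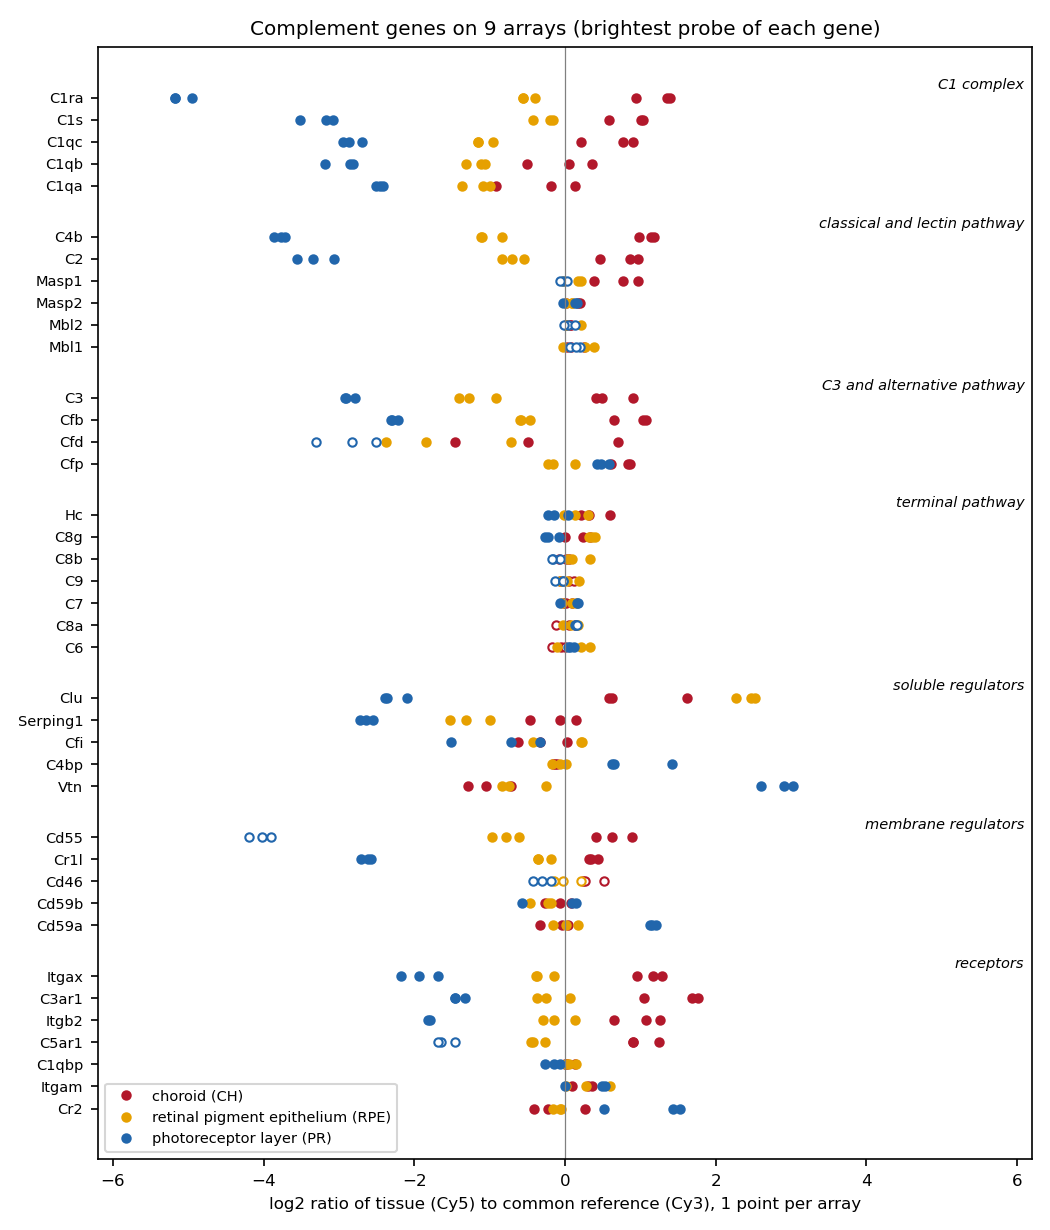
Log2 ratio of tissue to common reference (x axis) for the 39 complement genes by role (y axis), with 1 point per array and open points where no array of that tissue was well above background. Most genes of the C1 complex, C2, C4b, C3, Cfb, Cd55, Cr1l and the receptors C3ar1, C5ar1, Itgax and Itgb2 run from PR on the left through RPE to CH on the right, whereas Vtn has its PR points at 2.60 to 3.03 and Clu its RPE points at 2.27 to 2.52.

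The sequences below are those of probes that disagreed and of some promoters. Itgam, the alpha chain of complement receptor 3, had 3 probes that disagreed, and its brightest probe opens with a CA repeat. These probes lie on the plus strand of chromosome 7 (mm9), at chr7:135261755-135261814 for the brightest, chr7:135260275-135260334 for the middle and chr7:135212140-135212199 for the dimmest. The first 30 bases of the brightest probe and all 60 bases of the others are given, with a CA run of 20 bases in capitals.
Itgam brightest probe: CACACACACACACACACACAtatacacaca
Itgam middle probe: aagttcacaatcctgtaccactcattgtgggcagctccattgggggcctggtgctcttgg
Itgam dimmest probe: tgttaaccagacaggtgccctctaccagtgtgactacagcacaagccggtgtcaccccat

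Of the 39429 probes, 24 held a CA run of 20 bases or more. Their mean log2 intensity over both dyes had a median of 15.9, whereas that of all probes was 9.62, and 22 of the 24 lay among the brightest 10% of probes. None of the 24 was called in any comparison, whereas 8173 of all probes were called in at least 1.

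The brightest Itgam probe, at a mean log2 intensity of 16.38, read 0.36, 0.31 and 0.09 on the CH arrays, 0.60, 0.28 and 0.02 on the RPE arrays and 0.49, 0.53 and 0.00 on the PR arrays, as log2 ratios. All 3 tissues overlapped there, and CH minus PR was -0.09 (adjusted p = 0.72). The middle probe, at 9.47, read -0.05, -0.15 and -0.70 in CH, -0.83, -0.96 and -0.99 in RPE and -1.25, -1.31 and -1.39 in PR. At this probe the tissues did not overlap and were ordered CH, RPE, PR; the CH minus PR difference was 1.02 (adjusted p = 0.000319), below the fold threshold. The dimmest probe, at 8.74, gave between -0.31 and -0.03 on all 9 arrays, with CH (-0.19 to -0.13) just below RPE (-0.10 to -0.03), an RPE minus CH difference of 0.10 (adjusted p = 0.501), and PR overlapping both. The value of Itgam in the counts above comes from the CA-repeat probe.

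**Figure D2:**
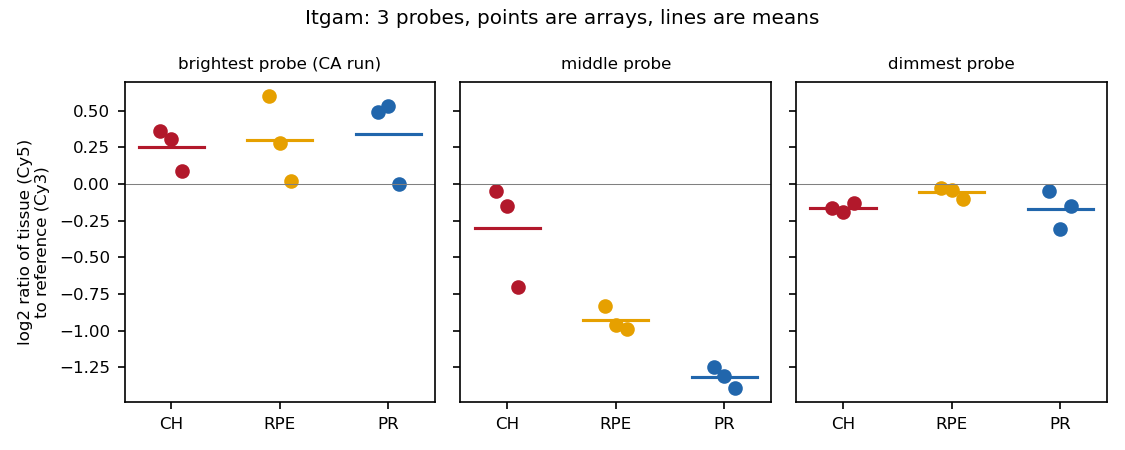
Log2 ratio to the common reference (y axis) by tissue (x axis) for the 3 Itgam probes, with points for arrays and lines for means. All tissues overlap at the brightest probe, PR overlaps both other tissues at the dimmest, and the middle probe steps down from CH (-0.05 to -0.70) to PR (-1.25 to -1.39).

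The RefSeq promoter table (GRCm38.p6) held 30 of the 39 genes, with C1s found as C1s1; C1qa, C2, C4b, Cfb, Cfi, Clu, Serping1, Masp1 and Itgb2 were the others. The letters AGGAAGT, the core that ETS factors such as the myeloid regulator PU.1 prefer, were searched on both strands in the 250 bases before each start. They occurred in 4 of the 30 promoters (C1qb, C1qc, C5ar1 and Masp2) and in 7.69% of all 32851 promoters. C1qb, C1qc and C5ar1 had the order CH, RPE, PR on the arrays. Masp2 did not have it, as its tissues overlapped, with 1 CH, 1 RPE and 2 PR arrays well above background. C1ra, C1s, C3, Cd46, Cd55, Cr1l, C3ar1 and Itgax had the same order and a promoter entry without these letters. Of these, Cd46 was not well above background on any array. The motif was chosen after these values were known, and its part in them was not tested. The 250 bases before the starts of C1qb, C1qc and C5ar1 are given 5′ to 3′ on the gene's strand, with the motif in capitals. Each match is on the opposite strand and reads ACTTCCT. All 3 genes lie on the minus strand, C1qb at chr4:136886201-136886450, C1qc at chr4:136892915-136893164 and C5ar1 at chr7:16259339-16259588.
C1qb: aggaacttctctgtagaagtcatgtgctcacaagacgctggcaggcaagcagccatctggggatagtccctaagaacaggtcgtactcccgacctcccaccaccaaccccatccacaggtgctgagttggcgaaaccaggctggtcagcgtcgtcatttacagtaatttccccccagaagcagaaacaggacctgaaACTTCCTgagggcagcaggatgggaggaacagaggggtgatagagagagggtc
C1qc: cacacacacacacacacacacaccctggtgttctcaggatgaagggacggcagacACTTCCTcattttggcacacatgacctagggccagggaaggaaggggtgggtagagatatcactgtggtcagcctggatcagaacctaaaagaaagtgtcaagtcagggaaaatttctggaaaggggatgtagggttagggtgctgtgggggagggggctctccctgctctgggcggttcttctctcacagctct
C5ar1: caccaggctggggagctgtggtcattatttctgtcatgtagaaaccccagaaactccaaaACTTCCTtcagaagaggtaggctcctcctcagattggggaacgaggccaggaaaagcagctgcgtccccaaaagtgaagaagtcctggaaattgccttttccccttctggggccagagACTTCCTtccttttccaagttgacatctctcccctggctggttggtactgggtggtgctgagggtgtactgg

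The motif begins 53 bases before the start in C1qb, 195 in C1qc, and 72 and 190 in C5ar1. The letters TAATCC, the core that the photoreceptor factor CRX prefers, occurred in 4 of the 30 promoters (C1ra, Cr1l, Itgax and Mbl2) and in 6.25% of all promoters. TATAAA, the TATA box, occurred in 4 of the 30 as well (C3ar1, C7, Hc and Vtn), beside 12.4% of all promoters.

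The labelled tissues carried their own markers, and CH and RPE also carried markers of each other. All 8 rod genes listed were called higher in PR than in CH and RPE, with 3 of them saturated on all PR arrays. Of 8 RPE genes, 5 were called higher in RPE than in CH and 7 higher than in PR. Of the 5, Ttr was saturated on all CH and RPE arrays and cannot order them, Rpe65 and Rdh5 were saturated on all RPE arrays and some CH arrays, Lrat on 1 RPE array, and Rlbp1 on none, at a RPE minus CH difference of 1.76 (adjusted p = 0.00316). Best1 was not well above background on any CH array. Of 8 fibroblast genes, 7 were called higher in CH than in RPE. Yet 7 of the 8 RPE genes were called higher in CH than in PR. In RPE, 7 of the 8 fibroblast genes and 9 of 10 endothelial genes were called higher than in PR. The study's methods call some carry-over of cells from adjacent layers unavoidable. Its part in the complement values of RPE and CH was not tested. CH replicate 3 stood apart among the CH arrays, with a median log2 ratio of the RPE markers of 1.21 beside 0.40 and 0.12. On RPE replicate 2, 91.81% of spots were well above background, beside 63.14% to 71.88% on the other arrays. In these bulk samples fewer cells of a type and less RNA per cell cannot be told apart.

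The 3 chains of C1q, the molecule that recognises immune complexes and opens the classical pathway, were higher in CH than in PR. C1qa read 0.13, -0.18 and -0.91 on the CH arrays, -1.0, -1.36 and -1.09 on the RPE arrays and -2.46, -2.42 and -2.51 on the PR arrays (log2 ratios). C1qb read 0.36, 0.06 and -0.50 in CH, -1.06, -1.31 and -1.11 in RPE and -2.85, -3.19 and -2.81 in PR. C1qc read 0.77, 0.90 and 0.22 in CH, -0.96, -1.16 and -1.15 in RPE and -2.86, -2.69 and -2.95 in PR. For all 3 genes the tissues were separate and ordered CH, RPE, PR, and CH replicate 3 was the lowest CH array. For C1qa the gap between CH and RPE came down to that array, -0.91 beside -1.0.

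The CH to PR ratio was 4.43-fold for C1qa (log2 difference 2.15 ± 0.22, SE, n = 3 arrays each; adjusted p = 2.06e-05), 7.58-fold for C1qb (adjusted p = 1.1e-06) and 11-fold for C1qc (adjusted p = 8.83e-08). Between RPE and CH the order of the 3 genes was the same. C1qc was 3.3-fold higher in CH (adjusted p = 0.000207) and called, C1qb was 2.19-fold higher in CH (adjusted p = 0.00379) and C1qa 1.78-fold (adjusted p = 0.0256), neither of which was called. Without CH replicate 3, C1qb was called as well. RPE exceeded PR by 3.46-fold for C1qb and 3.34-fold for C1qc, both called, and by 2.49-fold for C1qa, just under the threshold and past it without RPE replicate 2 or PR replicate 2. The 3 probes lie within the same stretch of chromosome 4 (mm9), with starts 9.2 kb apart between C1qb and C1qc and 6.6 kb apart between C1qc and C1qa. These neighbouring genes, whose chains form 1 molecule, kept the order CH, RPE, PR in every comparison of arrays.

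The proteases of the C1 complex separated the tissues further. C1ra (NM_023143, probe at chr6:124473052-124473111, mm9), which encodes a C1r protease, read 1.39, 1.36 and 0.94 in CH, -0.56, -0.40 and -0.55 in RPE and -4.95, -5.18 and -5.17 in PR. C1s, its partner, read 1.03, 1.01 and 0.58 in CH, -0.16, -0.20 and -0.42 in RPE and -3.08, -3.51 and -3.17 in PR. No tissues overlapped for either gene. C1ra was 80.5-fold higher in CH than in PR (log2 difference 6.33 ± 0.13, SE; adjusted p = 2.01e-09), the largest ratio among the 39 genes, and 24.2-fold higher in RPE than in PR. Its dimmer probe gave smaller log2 differences of 3.84 for CH minus PR and 2.87 for RPE minus PR. At that probe RPE minus CH was -0.97 (adjusted p = 0.00647) and not called, whereas at the brighter probe it was -1.73 (adjusted p = 9.23e-05) and called. C1s was 17.5-fold higher in CH and 7.95-fold higher in RPE than in PR, both called, and 2.19-fold higher in CH than in RPE (adjusted p = 0.0011), which was not called. Mice carry near-identical copies of C1r and C1s, and C1rb, the copy of C1ra, had a CH minus PR difference of 0.51 (adjusted p = 0.0825) at its own probe.

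C2 and C4, which C1s cleaves to form the classical C3 convertase, were ordered in the same way. C2 read 0.87, 0.97 and 0.46 in CH, -0.54, -0.70 and -0.84 in RPE and -3.56, -3.07 and -3.34 in PR. C4b (NM_009780, chr17:34865328-34865387) read 1.18, 1.14 and 0.98 in CH, -0.84, -1.11 and -1.10 in RPE and -3.77, -3.71 and -3.86 in PR, at a probe whose annotation also lists the copy C4a. Both genes separated all 3 tissues. C4b was 29.5-fold higher in CH than in PR (adjusted p = 2.01e-09) and 4.33-fold higher in CH than in RPE (log2 difference RPE minus CH -2.11 ± 0.11, SE; adjusted p = 2.93e-05), the largest difference between these layers among the 39 genes. C2 was 17-fold higher in CH than in PR and 2.76-fold higher in CH than in RPE (adjusted p = 0.000433).

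The lectin side of the pathway was near background. Mbl1, Mbl2, Masp1 and Masp2, the mannose-binding lectins and their proteases, were not well above background on all arrays of any tissue. Their brightest-probe differences lay between -0.59 (Masp1, RPE minus CH) and 0.73 (Masp1, CH minus PR). Masp1 read 0.77, 0.97 and 0.38 in CH, 0.17, 0.21 and -0.03 in RPE and -0.03, 0.03 and -0.06 in PR, but only 1 CH array was well above background, and its second probe gave -0.05, -0.05 and -0.06 in CH.

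C3, the component on which all pathways converge, was highest in CH. Its brighter probe read 0.41, 0.90 and 0.49 in CH, -0.92, -1.27 and -1.41 in RPE and -2.79, -2.91 and -2.92 in PR. The tissues did not overlap. C3 was 11.1-fold higher in CH than in PR (adjusted p = 6.29e-08), 3.47-fold higher in CH than in RPE (adjusted p = 0.000148) and 3.2-fold higher in RPE than in PR (adjusted p = 1.21e-05). The second C3 probe kept the order but gave RPE minus PR as 0.80 (adjusted p = 0.0117), which was not called, beside 1.68 at the brighter probe.

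Of the alternative pathway, Cfb (factor B, which carries the protease of the alternative convertase) read 1.07, 1.04 and 0.65 in CH, -0.47, -0.59 and -0.58 in RPE and -2.21, -2.30 and -2.31 in PR. It was 9.16-fold higher in CH than in PR (adjusted p = 1.82e-08) and 2.76-fold higher in CH than in RPE (adjusted p = 0.000114). The Cfb, C2 and C4b probes lie together on chromosome 17, Cfb and C2 6.1 kb apart and C4b 128.2 kb from Cfb. These 3 neighbouring genes shared the order CH, RPE, PR.

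Cfd (factor D, also called adipsin, which cleaves factor B) varied more between arrays of the same tissue than any other called gene. It read 0.70, -1.46 and -0.49 in CH, -1.85, -0.71 and -2.38 in RPE and -2.51, -3.30 and -2.82 in PR, where no array was well above background. CH and RPE overlapped. CH exceeded PR at least 4.65-fold (adjusted p = 0.00321), a bound taken from the Cy5 channel against the dimmest signal well above background, which is open to dye bias since dyes were not swapped. The call was lost without PR replicate 2 and without PR replicate 3. RPE minus CH was -1.23 ± 0.54 (SE; adjusted p = 0.144).

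Cfp (properdin, which stabilises the alternative convertase) did not follow the order of the others. It read 0.61, 0.84 and 0.86 in CH, -0.22, 0.13 and -0.16 in RPE and 0.59, 0.48 and 0.42 in PR, so that RPE was the lowest tissue on every array. RPE was 1.81-fold lower than CH (adjusted p = 0.00114) and 1.5-fold lower than PR (adjusted p = 0.00232), both below the fold threshold. CH minus PR was 0.27 (adjusted p = 0.0809).

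The pore-forming end of the chain gave no call. Of its 7 genes (Hc, which encodes C5, and C6, C7, C8a, C8b, C8g and C9), only Hc in CH and C8g in all tissues were well above background on all 3 arrays of a tissue. Log2 differences of the 7 genes lay between -0.24 and 0.22 for RPE minus CH, between -0.08 and 0.55 for RPE minus PR and between -0.15 and 0.49 for CH minus PR. Hc read 0.32, 0.21 and 0.60 in CH, -0.01, 0.30 and 0.13 in RPE and -0.14, -0.22 and 0.04 in PR (CH minus PR 0.49, adjusted p = 0.0104). C8g, a lipocalin that joins C8, read 0.32, 0.40 and 0.36 in RPE and -0.08, -0.27 and -0.22 in PR, a difference of 0.55 (adjusted p = 0.00168) that its second probe gave as 0.20 (adjusted p = 0.201). In all, 10 of the 39 genes were not well above background on all arrays of any tissue, and 31.6% of all genes on the array were not. Most plasma complement is made by liver; of 6 liver markers, albumin among them, 5 were not well above background on any CH array and 4 on any PR array. Apoh was well above background on all PR arrays and called higher there than in RPE (adjusted p = 0.000157), Serpina1a was well above background on all arrays, and the list's median log2 ratio lay between -0.15 and 0.09 on all arrays.

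The soluble regulators went in different directions. Serping1, which encodes the C1 inhibitor that removes C1r and C1s, read 0.15, -0.07 and -0.46 in CH, -1.0, -1.53 and -1.31 in RPE and -2.55, -2.64 and -2.72 in PR at its brighter probe. Its other probe read 1.04, 1.22 and 0.74 in CH, -0.68, -0.72 and -1.05 in RPE and -3.61, -3.87 and -3.73 in PR. Both probes separated all tissues in the order CH, RPE, PR, with larger steps at the second. CH minus PR was 2.52 at the first (adjusted p = 1.03e-06) and 4.74 at the second. RPE minus CH was -1.16 (adjusted p = 0.00158) at the first and not called, and -1.82 (adjusted p = 0.000114) at the second. RPE exceeded PR by 2.56-fold at the brighter probe (adjusted p = 0.000102), a call that sat close to the fold threshold and was lost without RPE replicate 1 and without PR replicate 3.

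Vtn (vitronectin, an adhesive glycoprotein that binds nascent terminal complexes and keeps them out of membranes) was the only member called highest in PR. Its probe (NM_011707) covers chr11:78315393-78315665 on mm9. It read 2.60, 3.03 and 2.91 in PR, -1.28, -1.05 and -0.72 in CH and -0.25, -0.83 and -0.74 in RPE, as the mean of 10 spots per array. PR stood clear of the other tissues, which overlapped each other. Vtn was 14.6-fold higher in PR than in CH (log2 difference CH minus PR -3.87 ± 0.19, SE; adjusted p = 1.12e-07) and 11-fold higher in PR than in RPE (adjusted p = 3.08e-07). RPE minus CH was 0.41 (adjusted p = 0.173). The Cy3 signal of the common reference was lower on the PR arrays (29162, 25218 and 18121) than on the CH arrays (38767, 43713 and 36304). On the RPE arrays it was 36943, 42855 and 38655. The folds against PR include this shift. Under the alternatives tested, CH minus PR ran from -4.17 to -3.07 and RPE minus PR from -3.86 to -2.74.

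Beside Vtn, 3 further genes had every PR array above every CH and RPE array, making 4 of 39, whereas 24.8% of all genes did. Cd59a, a membrane-anchored inhibitor of the terminal pore, read 1.13, 1.21 and 1.15 in PR, -0.04, 0.04 and -0.33 in CH and 0.18, 0.01 and -0.16 in RPE. It was 2.41-fold higher in PR than in CH (adjusted p = 1.26e-05) and 2.22-fold higher in PR than in RPE (adjusted p = 3.1e-05), both under the fold threshold; without CH replicate 2 the first was called. Its copy Cd59b, 29.8 kb away on chromosome 2, read 0.15, -0.57 and 0.09 in PR, and its tissues overlapped.

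C4bp, whose product helps to inactivate C4b, was well above background on all PR arrays and on no CH array. It read 1.42, 0.62 and 0.65 in PR, -0.13, -0.16 and -0.11 in CH and -0.07, 0.01 and -0.17 in RPE. PR exceeded CH at least 1.46-fold (adjusted p = 0.00111). Cfi (factor I, the protease that cuts C3b and C4b) read -0.62, -0.33 and 0.03 in CH, 0.22, -0.42 and 0.23 in RPE and -1.51, -0.33 and -0.72 in PR, with overlap between all tissues and no call.

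Clu (clusterin, a chaperone that also blocks the terminal complex) was the only member called higher in RPE than in CH, but its probe cannot order these layers. The log2 ratios were 2.47, 2.27 and 2.52 in RPE, 0.58, 0.63 and 1.62 in CH and -2.39, -2.09 and -2.36 in PR. The Cy5 signal, which carries the tissue RNA, was saturated on all 6 RPE and CH arrays. As scanned it was 644737, 590917 and 641784 in RPE and 638886, 592548 and 641279 in CH. The Cy3 signal, which carries the same reference RNA on every array, was 38097, 41173 and 34530 on the RPE arrays, 113402, 96553 and 50921 on the CH arrays and 352018, 401181 and 292357 on the PR arrays. The difference of 1.48 between the RPE and CH ratios (adjusted p = 0.00263) therefore lay in the reference channel. No fold is given for that comparison.

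The Cy3 signal of Clu ranged 11.6-fold over the arrays, or 3.54 on the log2 scale, whereas the 38 other members had a median range of 0.80. Against PR, whose Cy5 was not saturated, the Cy5 channel alone put Clu at least 3.36-fold higher in RPE and at least 3.26-fold higher in CH. The calls against PR rest on ratio differences of 4.70 for RPE and 3.22 for CH. Those differences include the shift of the Cy3 signal, so their p-values do not test these folds. The call between RPE and CH was also lost when CH replicate 1, CH replicate 2, RPE replicate 1 or RPE replicate 3 was left out.

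**Figure D3:**
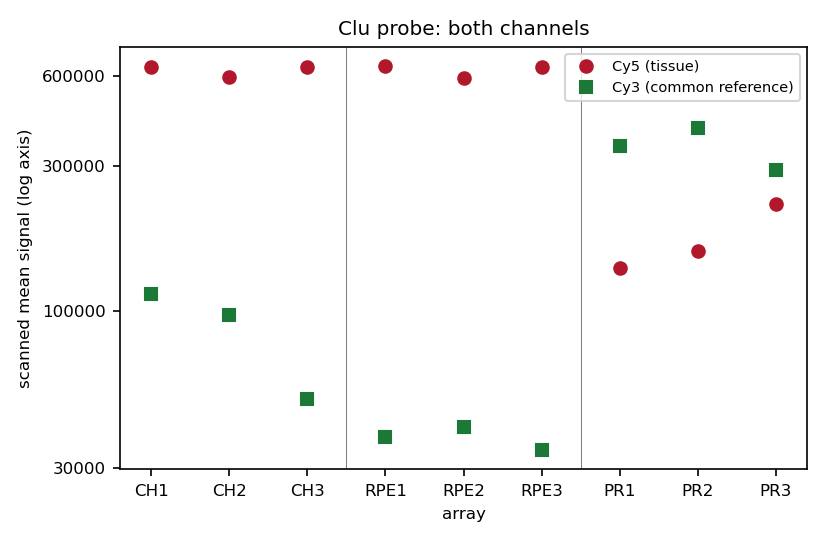
Scanned mean signal of the Clu probe (y axis, log scale) on each array (x axis) in both channels. The Cy5 points of the 6 CH and RPE arrays sit together between 590917 and 644737, and the Cy3 points of the common reference run from 34530 to 401181.

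Of the membrane regulators, which protect host cells, Cd55 and Cr1l followed the order CH, RPE, PR. Cd55 (decay accelerating factor, which takes apart C3 convertases) read 0.63, 0.89 and 0.41 in CH, -0.61, -0.97 and -0.78 in RPE and -3.90, -4.02 and -4.19 in PR. No PR array was well above background. CH exceeded PR at least 13.8-fold (adjusted p = 6.49e-09) and RPE exceeded PR at least 5.01-fold (adjusted p = 7.54e-08). CH was 2.69-fold higher than RPE (adjusted p = 0.000256), a call that was lost without CH replicate 2.

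Cr1l (Crry, the broadly expressed rodent inhibitor of C3 convertases) read 0.44, 0.34 and 0.32 in CH, -0.19, -0.36 and -0.36 in RPE and -2.71, -2.57 and -2.62 in PR. Its arrays were close within each tissue, with SDs of 0.06 in CH, 0.09 in RPE and 0.07 in PR (n = 3). It was 8.02-fold higher in CH (adjusted p = 5.95e-09) and 5.04-fold higher in RPE (adjusted p = 3.41e-08) than in PR, and 1.59-fold higher in CH than in RPE (adjusted p = 0.000973), below the fold threshold. Cd46, a further membrane cofactor whose probe spans 20399 bases of chromosome 1, had the same order but was not well above background on any array.

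**Figure D4:**
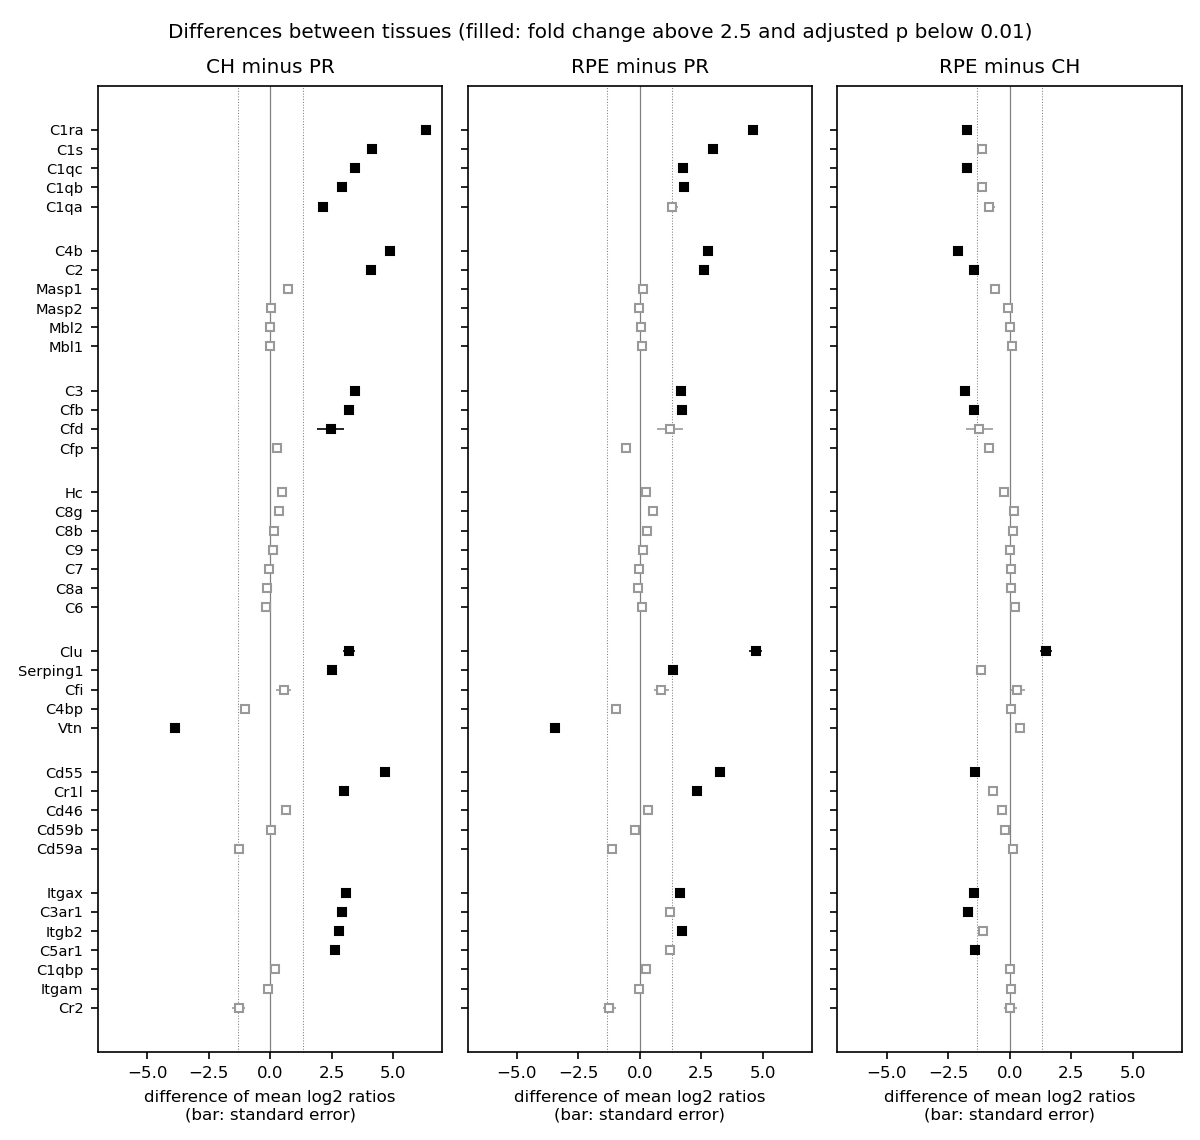
Difference of mean log2 ratios between tissues (x axis, bars are standard errors of the fit) for the 39 genes (y axis), with filled squares for called genes and dotted lines at a fold change of 2.5. CH minus PR reaches 6.33 for C1ra and -3.87 for Vtn, the terminal pathway stays between -0.15 and 0.49 there, and RPE minus CH has 10 filled squares on the left and Clu on the right.

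Of the 7 receptor genes, 4 were called higher in CH than in PR: C3ar1, C5ar1, Itgax and Itgb2. C3ar1, the receptor of the fragment C3a, read 1.69, 1.77 and 1.05 in CH, -0.25, 0.07 and -0.37 in RPE and -1.32, -1.46 and -1.46 in PR. C5ar1, the receptor of C5a, read 0.90, 1.25 and 0.91 in CH, -0.45, -0.26 and -0.42 in RPE and -1.46, -1.65 and -1.68 in PR, where no array was well above background. Both genes separated all tissues. C3ar1 was 7.57-fold higher in CH than in PR (adjusted p = 6.57e-07) and 3.23-fold higher in CH than in RPE (adjusted p = 0.00041), and its RPE to PR ratio of 2.34-fold was called only without RPE replicate 3 among the fits that left out an array. C5ar1 in CH exceeded PR at least 4.45-fold (adjusted p = 7.02e-08) and RPE 2.64-fold (adjusted p = 0.000141); without CH replicate 2 the latter was not called.

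Itgax, the alpha chain of complement receptor 4, read 1.17, 1.29 and 0.96 in CH, -0.15, -0.38 and -0.37 in RPE and -1.69, -2.17 and -1.94 in PR. Itgb2, the beta chain shared by complement receptors 3 and 4, read 1.07, 1.26 and 0.65 in CH, 0.14, -0.29 and -0.14 in RPE and -1.79 and -1.82 on the PR replicates 2 and 3; the spot of PR replicate 1 was marked as an outlier by the scanner software and dropped. Neither gene had overlapping tissues. Itgax was 8.41-fold higher in CH than in PR (adjusted p = 6.81e-08) and 2.72-fold higher in CH than in RPE (adjusted p = 0.000228). Itgb2 was 6.94-fold higher in CH than in PR (adjusted p = 2.21e-06) and 3.27-fold higher in RPE than in PR (adjusted p = 6.78e-05), with the latter call lost when the outlier spot was kept. The Itgax probe lies 32.3 kb from the CA-repeat probe of Itgam.

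Cr2, the receptor of C3d on B cells and follicular dendritic cells, had probes that disagreed. The brighter read 1.53, 0.52 and 1.43 in PR, -0.41, 0.27 and -0.22 in CH and -0.16, -0.05 and -0.06 in RPE, with PR clear of both, and PR was 2.42-fold higher than CH (adjusted p = 0.00195), under the fold threshold. The other read -0.26, -0.25 and -0.25 in PR, -0.35, 0.49 and 0.20 in CH and 0.32, -0.08 and 0.59 in RPE, with CH minus PR at 0.36 (adjusted p = 0.192). At the brighter probe the replicate 2 arrays of all tissues, which shared a slide, were dim in both channels. The Cy3 signal of the common reference was 173, 305 and 194 on CH, RPE and PR replicate 2 and between 998 and 1409 on the other 6 arrays. Without PR replicate 2, Cr2 was called higher in PR than in both other tissues, and without CH replicate 2 higher than in CH. C1qbp, a mostly mitochondrial protein that binds the globular heads of C1q, lay between -0.26 and 0.15 on all arrays and gave no call.

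Several cell types that are known sources of complement differed between the same tissues. Of 12 macrophage and microglia markers, 11 were called higher in CH than in PR, 8 higher in RPE than in PR and 6 lower in RPE than in CH. Their median log2 ratio was 0.49 to 1.01 on the CH arrays, -0.52 to -0.42 on the RPE arrays and -2.69 to -2.57 on the PR arrays. Emr1 (F4/80), a defining macrophage gene, read 0.81, 1.02 and 0.54 in CH, -1.24, -1.10 and -1.27 in RPE and -5.09, -5.39 and -5.31 in PR. Csf1r, the receptor of the macrophage growth factor, went against the CH to RPE step, at 0.61, 0.50 and 0.65 in CH and 0.91, 1.40 and 1.04 in RPE, with no overlap (RPE minus CH 0.53, adjusted p = 0.0162, not called); it was -3.05, -3.22 and -3.12 in PR. Cd163 was not well above background on any CH or PR array. The 8 fibroblast markers had medians of 1.04 to 1.42 in CH, -1.36 to -0.83 in RPE and -4.45 to -3.87 in PR, whereas the medians of the 10 endothelial markers were 1.36 to 1.87 in CH and 1.38 to 1.52 in RPE, and none of them was called between these layers. The part of any of these cell types in the complement values was not tested.

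The place of RPE between the other layers can be put as a number, 0 at the PR mean and 1 at the CH mean on the log2 scale. Over the 18 complement genes called higher in CH than in PR its median was 0.59 (0.42 for C3ar1 to 1.46 for Clu). It was 0.60 (0.27 to 1.14) over the 11 macrophage markers called in the same way. Over the 8 fibroblast markers, of which Dcn was saturated on all CH arrays, it was 0.60 (0.43 to 0.74). Over the 9 endothelial markers it was 0.97 (0.86 to 1.1). No value is given for the RPE markers, of which 4 were saturated on all RPE arrays. Over all 4064 genes so called it was 0.78, with quartiles of 0.60 and 1.02. Among complement genes RPE lay lowest on this scale for C3ar1 (0.42), C5ar1 (0.47) and C3 (0.48), and highest after the saturated Clu for Cr1l (0.78), C1ra (0.73) and C1s (0.73). The PR means of Cd55, C5ar1 and Cfd come from arrays not well above background, and none of these values was tested.

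**Figure D5:**
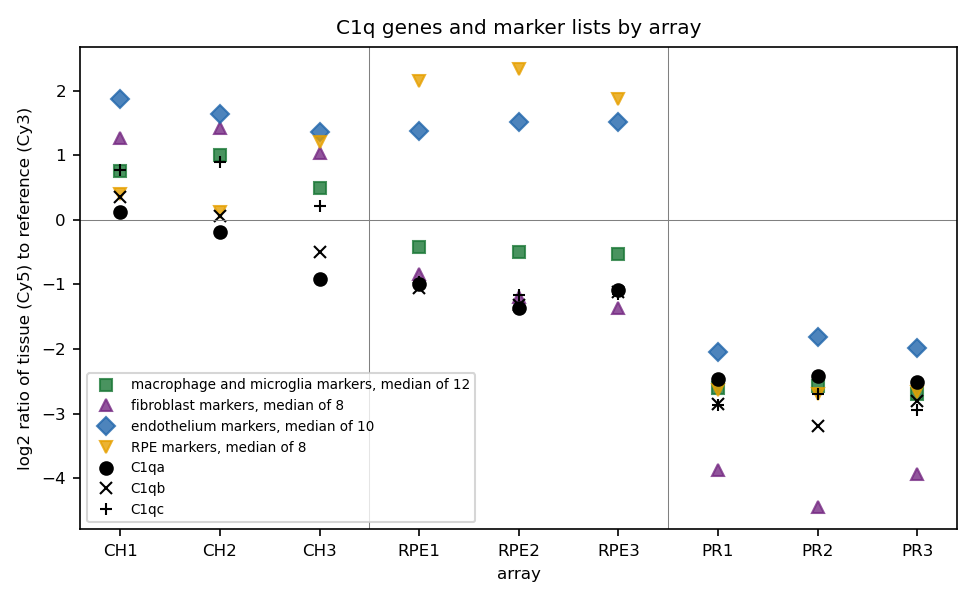
Log2 ratio to the common reference (y axis) on each array (x axis) for the 3 C1q genes and the medians of marker lists. The C1q genes step down from CH to RPE to PR as the macrophage (0.49 to 1.01 in CH, -2.69 to -2.57 in PR) and fibroblast medians do, whereas the endothelial median is 1.36 to 1.87 in CH and 1.38 to 1.52 in RPE.

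Among the genes whose values were most like the mean of the 3 C1q genes over the 9 arrays were Pla2g15 (Pearson's r = 0.9982), Ly86 (0.9981), Cdh1 (0.998) and 4632428N05Rik, now named Vsir (0.997). Pla2g15 encodes a lysosomal phospholipase, Ly86 a partner of a Toll-like receptor homologue on myeloid and B cells, Cdh1 epithelial cadherin and Vsir an immune checkpoint receptor. Of the macrophage markers with a value on every array, r ran from -0.009 for Cd163 and 0.827 for Csf1r to 0.991 for Aif1 and 0.993 for Mrc1, and of the complement genes Serping1 was at 0.996. The 9 points fall into 3 tissues, so these coefficients mainly state the order of the tissues and are a description without a test.

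Of 25 further complement-related genes, 21 were on the array under the names searched. CH exceeded PR for 8 of the 21 (12.8% of all genes), RPE exceeded PR for 5 (10.9%), and RPE lay below CH for 3 (1.75%). None was called the other way, beside 6.03%, 5.21% and 0.179% of all genes. The median log2 difference of the 21 was 0.38 for CH minus PR, 0.33 for RPE minus PR and 0.0 for RPE minus CH. The 3 lower in RPE than in CH were Gpr77, an older name of the other C5a receptor, Colec12, a scavenger receptor with a collectin domain, and Thbd (thrombomodulin), which restrains both coagulation and complement. Gpr77 read 1.72, 1.96 and 1.44 in CH, -0.17, -0.06 and -0.19 in RPE and -1.98, -1.85 and -1.90 in PR, the same order as C5ar1. Colec12 had the widest gap, with a CH minus PR difference of 6.68, followed by Thbd at 6.01 and Cd93, a receptor once taken for a C1q receptor, at 5.07. Lrp1, a clearance receptor, read 0.47 to 0.71 in CH and 0.76 to 0.93 in RPE and was called higher in both than in PR. The plasma carboxypeptidase N genes Cpn1 and Cpn2 were not well above background on any CH or PR array.

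The RPE and CH arrays shared slides, and the 10 genes lower in RPE were lower within both. The 10 were picked on these same arrays, so their sign within slides was largely set in advance and is no separate evidence. Within slide 1, which held CH and RPE replicates 1 and 3, their RPE minus CH differences lay between -2.05 and -1.22. No gene of the array passed the adjusted threshold there with limma, and the smallest adjusted p was 0.02. Within slide 2, with 1 array of each tissue, the differences lay between -2.25 and -1.52. With slide as a block all 11 calls of that comparison remained. The PR replicates 1 and 3 sat on a slide of their own, so within-slide values against PR rest on the replicate 2 arrays; with the block, Serping1 was lost and C3ar1 and C5ar1 gained between RPE and PR, and Cfd was lost between CH and PR.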

How the data were processed

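The authors labelled amplified RNA, scanned each 2-colour array and deposited the scanner output of Agilent Feature Extraction 9.5.3.1, whose Cy5 and Cy3 intensity columns (mean and background signals, with flags) were used here; the authors' methods name limma in R 2.14.0. The deposited log10 ratios of the scanner software and the authors' log2 table of the series, with column medians of 9.378 to 9.549 and correlations of 0.9845 to 0.9991 with log2 Cy5, were used as alternatives only. That table's exact normalization is not given in the sources used here. Its values follow the tissue channel more closely than the reference channel.

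Each array held 43020 spots of 39429 probes, after 1377 control spots were left out. Background was corrected by normexp with an offset of 50, Cy5 over Cy3 was normalized by loess within arrays with control and outlier spots at weight 0, outlier spots (228 to 586 per array) were dropped and spots of a probe averaged. limma 3.58.1 in R 4.3.3 fitted tissue means over 9 arrays with empirical Bayes, and p-values were adjusted by Benjamini-Hochberg over all probes. A gene stood at its probe with the highest mean intensity. Group differences are differences of log2 ratios. A fold given as "at least" is a bound from the normalized Cy5 channel. The adjusted p beside it is that of the log2 ratios and does not test the bound. The number of arrays limits the precision, and p-values measure the spread between arrays, each of 1 eye according to the methods. On simulated data with 200 of 39429 probes changed, 188 were recovered for RPE against CH. Recovery at the sizes of the complement differences was not tested, so this count gives no sensitivity for them.

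Slides were read from the array barcodes or slots. Full values by array were given for members called in any comparison or with probes that disagreed, and the rest by ranges and counts. Of the 5 genes most like C1q, 1 is not reported here. The members and lists were chosen with earlier results of these data known. Coordinates are those of the files (mm9); promoters are from RefSeq (GRCm38.p6). Gene, exon and UTR annotation of probes was not used here. Tables and figures were made with Python 3.11.15, pandas 2.3.3 and matplotlib 3.10.9.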

Additional observations from a re-analysis of the deposited data

How the results depend on the processing

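None of the 45 called differences of a complement gene changed sign under any alternative that gave it a value. Of 998 such values 944 kept their call or, without a test, moved by less than the spread between arrays. Another 37 lost the call and 17 moved further. Of the 45 calls, 31 were held under every alternative of this kind. These alternatives kept the thresholds and each gene's brightest probe. With a gene at the probe of the median difference, 13 genes were called higher in RPE than in PR, beside 14 at the brightest. C3 between RPE and PR, counted among the 31, was not called at its second probe. Between RPE and CH the 11 calls became 7 with the Cy5 signal alone (C2, C3ar1, C5ar1 and Clu were lost), 6 with the authors' table (C2, Cd55, C3ar1 and C5ar1 were lost, and Clu had no value), and 0 within slide 1, where only 4 arrays remained and 0 of all genes passed. Leaving out 1 array at a time gave 8 to 13 calls between RPE and CH, 14 to 17 between RPE and PR and 18 to 21 between CH and PR. The arrays were not treated as paired by replicate number. The study's methods give 1 whole eye per sample and do not say whether samples of different tissues came from the same mouse. Same-numbered arrays deviated together with r of -0.078 to 0.286. With the replicate number as a block the counts were 11, 15 and 19, as without it. Serping1 between RPE and PR lost its call under 7 alternatives. At a fold change of 2 the counts were 15, 20 and 22. Genes near background and the saturated Clu probe have only bounds.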
